A study of Mus musculus with 6 samples.

Results

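The enzymes that build purine and pyrimidine nucleotides were followed in mouse leukaemia cells that differed in the vector they carried. The set is a list of 35 genes for nucleotide synthesis, salvage and phosphorylation. Of these, 34 had a probe set (a group of array probes summarised to 1 value) that the platform annotation assigns to a single gene, and they were taken out of 19938 genes measured in all. Where a gene had more than 1 such probe set, the brightest on average over the 6 arrays was used, which concerned Tk1 and Uck2. Impdh2 was not analysed here. The rule for members uses no measured difference between the groups, but the list was chosen with earlier results of these data known. Shares of the list set beside those of all genes are therefore a description.

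All 6 arrays were of total RNA from BCR-ABL1 transformed pre-B cells of strain 129P2/OlaHsd, a mouse model of Philadelphia chromosome-positive acute lymphoblastic leukaemia. The genotype was Ptpn6 +/fl in both groups, so each cell started with 1 floxed and 1 unfloxed allele of the gene for the tyrosine phosphatase SHP-1. Cells of the ERT2 group (3 arrays) carried PMIP-ERT2, which encodes a tamoxifen-binding receptor domain without a recombinase. Cells of the CRE-ERT2 group (3 arrays) carried PMIP-CRE-ERT2, in which that domain holds Cre recombinase inactive until tamoxifen is present. Both groups were puromycin resistant and were harvested after 2 days in 0.5 micromolar of the active tamoxifen metabolite, and the series asks what Ptpn6 does in such cells. With an unfloxed allele in every cell, the loss of 1 copy of Ptpn6 and the presence of active Cre cannot be told apart in this comparison. Whether the 3 samples of a group are independent cultures is not said in the labels. The p-values then cover the spread among these 6 samples only, and that spread may be technical.

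Median log2 expression was between 7.90 and 7.98 on the 6 arrays, whose number limits the precision. Ptpn6 itself changed by -0.07 (limma adjusted p = 0.759) on a probe set whose place relative to the floxed part is not known here. It therefore checks neither label, and the groups are named as labelled. Of 13 pre-B markers measured, 11 had a positive change, and the median over the 13 was 0.10 against -0.03 over all genes. In 7 of the 13 all CRE-ERT2 arrays lay above all ERT2 arrays and in 1 below, beside 6.92% and 15.5% of all genes. Of these markers 1 fell (Rag2, a subunit of the recombinase that joins antibody gene segments, by 0.53) and 1 rose (Dntt, which adds nucleotides at the joints, by 0.48). Of all genes, 2.28% passed as lower and 2.30% as higher. Mean log2 levels of the 13 ran from 8.42 (Rag2) to 14.43 (Igll1), with a median of 12.57. Cd79a, Cd79b, Ebf1 and Pax5 were between 12.57 and 13.84. Of 33 markers of T and natural killer, myeloid, erythroid and stromal cells, 0 passed in either direction with limma (lowest adjusted p = 0.1998, with 1, Lyz2, at an unadjusted p under 0.05). Levels of these 33 ran from 5.57 to 14.15 (Vim), with a median of 7.28, and Tfrc was at 12.83.

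Cells make purines by assembling a ring on an activated ribose phosphate called PRPP, which yields IMP, the precursor of both AMP and GMP. Pyrimidines are made the other way round: the ring is built first, joined to PRPP to give UMP, and then converted to CTP. Ribonucleotide reductase turns ribonucleotides into deoxynucleotides for DNA, thymidylate synthase adds the thymidine nucleotide, and salvage enzymes recover free bases and nucleosides. Dividing lymphoid cells depend on these routes, and drugs such as mercaptopurine and methotrexate act on them in the treatment of leukaemia.

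Of the 34 members, 4 fell, 0 rose and 30 did not pass in the arrays labelled CRE-ERT2. The 4 were Ppat, which commits PRPP to the purine ring, Umps, which completes UMP, Ctps, which makes CTP from UTP, and Adssl1, an adenylosuccinate synthetase on the branch from IMP to AMP. Calls were made at an adjusted p under 0.05 with limma, adjusted by the Benjamini-Hochberg method over all 19938 genes. The 4 members lower are 11.8% of the 34, where 2.28% of all genes passed as lower and 2.30% as higher. At an unadjusted p under 0.05, 16 members were lower and 1 (Tk2) higher, beside 11.1% and 5.29% of all genes. A change of log2 expression of 1 is a doubling, and the changes here were small, from -0.57 for Adssl1 to 0.20 for Tk2. Their median was -0.15, a level lower by 9.89%, against -0.03 over all genes. Over the 7754 genes at least as bright as the dimmest member the median change was -0.07.

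The direction was shared more widely than the calls. Of the 34 members, 30 had a negative change, as had 61.1% of all genes. In 25 members (73.5%) all 3 CRE-ERT2 arrays lay below all 3 ERT2 arrays, beside 15.5% of all genes. In 1 member, Impdh1, all 3 lay above, beside 6.92% of all genes, and in 8 the groups overlapped. All 34 members were brighter than the median gene, so the same shares were taken over the 7754 genes at least as bright as the dimmest member, a comparison chosen after seeing the data. Of those genes 69.5% had a negative change, 29.6% lay wholly lower and 3.80% were called lower. In bulk RNA, fewer cells of a type and less RNA per cell cannot be told apart. No single array set the direction: the median difference of the 34 members from their ERT2 mean was -0.13 on CRE-ERT2 replicate 1, -0.17 on replicate 2 and -0.16 on replicate 3. Over all genes it was -0.05, -0.01 and -0.03 on these 3 arrays, and it was not taken over the 7754 brighter genes alone. On the 3 ERT2 arrays the members were between -0.00399 and 0.00272, held near 0 because the ERT2 mean was subtracted. With ERT2 replicate 1, 2 or 3 left out, the median change of the members was -0.14, -0.15 or -0.16.

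**Figure D1:**
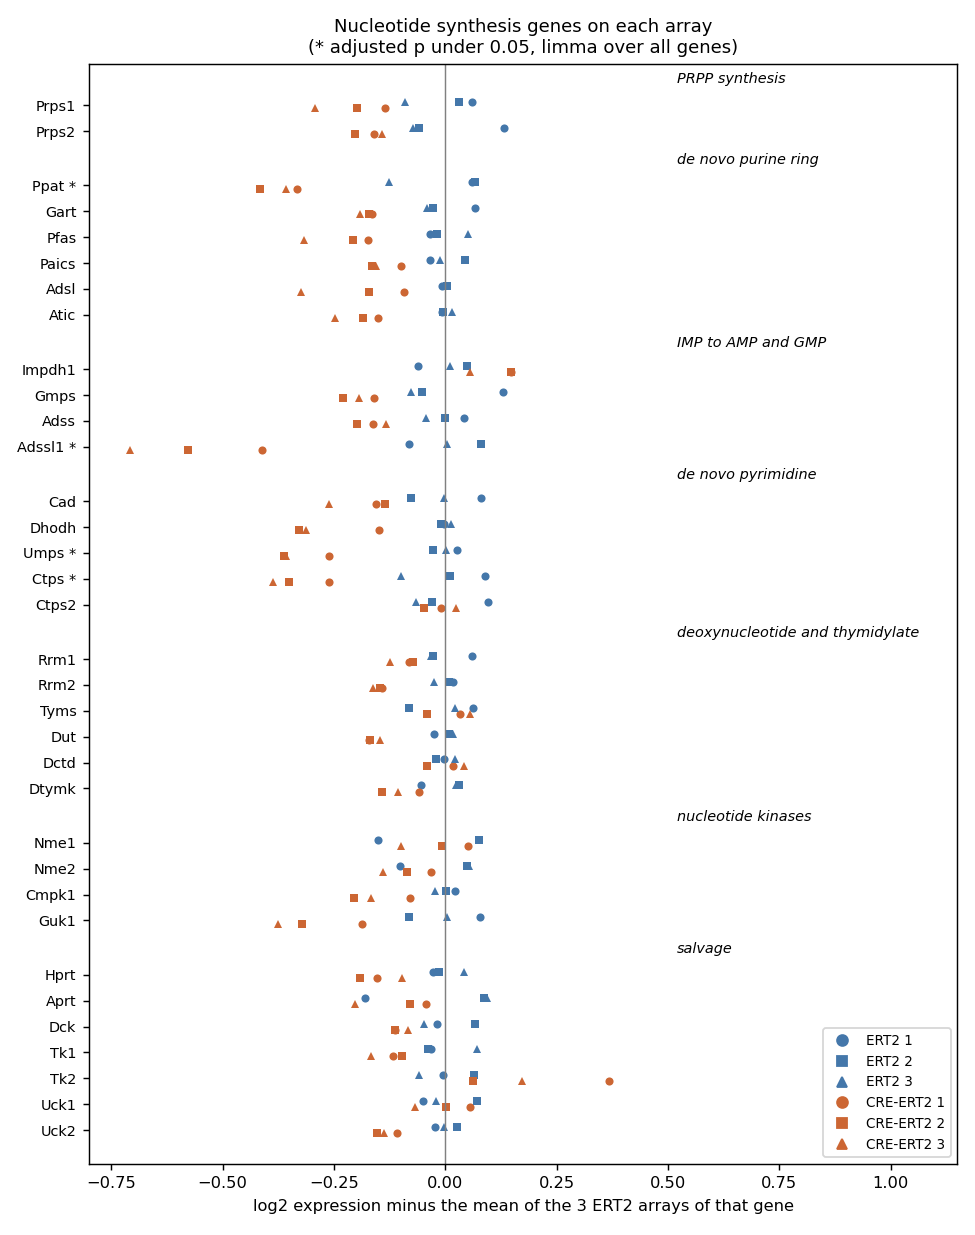
Each of the 34 measured genes on each of the 6 arrays, by enzyme group; the x axis is log2 expression minus that gene's mean over the 3 ERT2 arrays (blue), the orange points are the CRE-ERT2 arrays and the marker shape is the replicate number. In 25 genes the orange points lie wholly to the left of the blue ones, and the 4 genes with a star passed the test.

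The count of called members depended on single arrays and on the variance model. Without ERT2 replicate 1, without CRE-ERT2 replicate 2 or without CRE-ERT2 replicate 3, Adssl1 alone was called (1 of 34 in each case), beside 1.17%, 1.11% and 0.838% of all genes called lower. When all 35556 probe sets were tested together, 0 members were called (Adssl1 then had an adjusted p of 0.0590 with limma), beside 0.309% of all probe sets. A trended, robust variance called 10 members lower, or 29.4%, beside 4.80% of all genes, and the fit on the 7754 brighter genes called 8, or 23.5%, beside 11.1%.

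The 2 PRPP synthetase genes, Prps1 and Prps2, supply the activated ribose for both routes. Prps1 read 12.62, 12.59 and 12.47 on the ERT2 arrays and 12.42, 12.36 and 12.27 on the CRE-ERT2 arrays, a change of -0.21 ± 0.08 (SE) that did not pass (adjusted p = 0.173 with limma, but 0.0336 with a trended, robust variance). Prps1 was called in that 1 of 15 alternative settings only, with limma adjusted p up to 0.499. The groups did not overlap in Prps1, nor in Prps2, whose change was -0.17 (adjusted p = 0.310).

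All 6 genes of the purine ring had negative changes and groups that did not overlap, with a median of -0.20, and 1 of the 6 was called. Of all genes 61.1% had a negative change, 15.5% lay wholly lower and 2.28% were called lower. Among the 7754 brighter genes these shares were 69.5%, 29.6% and 3.80%. Ppat encodes the amidotransferase that starts the route and is its main point of control. It read 12.23, 12.24 and 12.05 on the ERT2 arrays and 11.84, 11.76 and 11.82 on the CRE-ERT2 arrays. Every CRE-ERT2 value was thus below the lowest ERT2 value, and the narrowest gap was to ERT2 replicate 3. The mean fell from 12.17 ± 0.11 to 11.80 ± 0.04 (SD, n = 3 each), a change of -0.37 with a standard error of 0.08, or 22.5% (limma adjusted p = 0.0159). Leaving out ERT2 replicate 1 raised its adjusted p with limma to 0.0730, leaving out CRE-ERT2 replicate 2 to 0.0711 and leaving out CRE-ERT2 replicate 3 to 0.0763, so the call was lost in each case.

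Downstream of Ppat, Pfas, which adds the next nitrogen from glutamine, read 11.16, 11.18 and 11.25 against 11.02, 10.99 and 10.88 (change -0.23, limma adjusted p = 0.105). Atic closes the ring in its last steps and read 13.24, 13.24 and 13.26 on the ERT2 arrays against 13.10, 13.06 and 13.00 on the CRE-ERT2 arrays (change -0.20, adjusted p = 0.157 with limma). Adsl, a lyase used both in the ring and on the way to AMP, read 12.29, 12.30 and 12.30 against 12.20, 12.12 and 11.97 (change -0.20, limma adjusted p = 0.215). In these 3 genes the ERT2 arrays lay close together, with SDs of 0.05 or less, and the CRE-ERT2 arrays spread more widely. The trifunctional enzyme gene Gart changed by -0.18 and Paics, which carries out a carboxylation and the step after it, by -0.14, and neither passed. A trended, robust variance called Atic (limma adjusted p = 0.0127), Pfas (0.0402) and Gart (0.0421), and Pfas (0.0293) and Atic (0.0429) were also called among the 7754 brighter genes.

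Ppat and Paics lie head to head on opposite strands, and their RefSeq gene models overlap by 277 bases at their starts. Their promoters are shown, followed by those of the other 3 called members. Paics was not called and is shown as the neighbour of Ppat. All 5 genes had negative changes with groups that did not overlap, as had 25 of the 34 members and 15.5% of all genes. Each is 1 promoter window of 300 bases, from 250 before to 50 after the annotated start, from RefSeq on build GRCm38.p6, written 5′ to 3′ on the gene's strand. Ppat is at chr5:76951529-76951828 on the minus strand and Paics at chr5:76951052-76951351 on the plus strand. Umps is at chr16:33966989-33967288 (minus strand), Ctps at chr4:120570227-120570526 (minus strand, the upstream of 2 listed starts) and Adssl1 at chr12:112619797-112620096 (plus strand). Capitals mark matches to the motifs described next.
Ppat: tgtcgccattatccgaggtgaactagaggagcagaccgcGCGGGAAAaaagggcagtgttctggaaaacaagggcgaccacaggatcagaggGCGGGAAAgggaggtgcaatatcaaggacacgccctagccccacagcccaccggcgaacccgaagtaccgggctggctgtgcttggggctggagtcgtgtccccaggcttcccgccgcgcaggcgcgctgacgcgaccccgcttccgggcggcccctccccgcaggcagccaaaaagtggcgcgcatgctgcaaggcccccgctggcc
Paics: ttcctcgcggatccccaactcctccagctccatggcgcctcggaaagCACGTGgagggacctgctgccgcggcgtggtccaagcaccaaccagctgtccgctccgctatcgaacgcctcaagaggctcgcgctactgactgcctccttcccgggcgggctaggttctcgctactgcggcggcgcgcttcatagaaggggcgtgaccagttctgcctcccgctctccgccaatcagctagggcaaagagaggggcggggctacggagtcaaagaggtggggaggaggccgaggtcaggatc
Umps: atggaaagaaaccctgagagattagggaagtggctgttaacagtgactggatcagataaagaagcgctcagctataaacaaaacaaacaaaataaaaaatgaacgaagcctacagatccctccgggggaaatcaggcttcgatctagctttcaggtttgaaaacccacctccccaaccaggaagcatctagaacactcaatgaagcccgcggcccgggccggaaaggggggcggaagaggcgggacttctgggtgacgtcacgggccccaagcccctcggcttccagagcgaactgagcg
Ctps: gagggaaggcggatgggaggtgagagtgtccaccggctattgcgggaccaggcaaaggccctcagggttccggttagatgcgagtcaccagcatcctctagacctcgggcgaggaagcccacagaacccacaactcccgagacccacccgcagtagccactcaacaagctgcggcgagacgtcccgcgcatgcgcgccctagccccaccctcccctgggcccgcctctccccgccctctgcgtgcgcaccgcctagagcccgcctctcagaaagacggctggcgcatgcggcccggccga
Adssl1: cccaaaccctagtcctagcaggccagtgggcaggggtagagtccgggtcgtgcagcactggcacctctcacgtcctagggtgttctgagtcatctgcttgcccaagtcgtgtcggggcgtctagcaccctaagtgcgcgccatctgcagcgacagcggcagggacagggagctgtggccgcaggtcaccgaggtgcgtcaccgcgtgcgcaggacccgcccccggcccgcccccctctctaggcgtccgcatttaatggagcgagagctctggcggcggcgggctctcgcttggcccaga

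The letters searched on both strands were CACGTG, the E-box that MYC and related factors bind, TTTCCCGC and TTTGGCGC, both E2F motifs, and TGATGCAA, an ATF4 motif. Of the 34 members, 32 had a window, and Pfas and Dhodh were not in the table. The E-box stood in a window of 5 members (15.6%), Paics, Atic, Tyms, Dtymk and Nme1, and in 8.09% of all 27025 genes with a window. TTTCCCGC stood in 2 members, Ppat (2 matches) and Prps2, or 6.25% against 1.24% of all genes. TTTGGCGC stood in 0 members (0.585% of all genes) and TGATGCAA in 0 (1.03%). No match overlapped another. Member windows were richer in G and C, with a median of 61.0% against 52.7% of all windows. A match here is a description of letters. The genes that hold the E-box include Paics (-0.14) and Atic (-0.20), whose groups did not overlap, and Tyms (0.02), whose groups did.

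On the branch from IMP, Adssl1 had the largest change of all members. It encodes the isozyme of adenylosuccinate synthetase best known from muscle, and Adss the one found in most tissues. Adssl1 read 9.84, 10.01 and 9.93 on the ERT2 arrays and 9.51, 9.35 and 9.22 on the CRE-ERT2 arrays. The lowest ERT2 array was above the highest CRE-ERT2 array by more than the range of the ERT2 arrays, and the 3 CRE-ERT2 values were spread more widely. The mean fell from 9.93 ± 0.08 to 9.36 ± 0.15 (SD, n = 3 each), a change of -0.57 with a standard error of 0.09, or 32.4% (limma adjusted p = 0.00193). Adss changed by -0.16 (adjusted p = 0.257 with limma) with groups that did not overlap. On the way to GMP, Gmps, the last enzyme, changed by -0.19 (limma adjusted p = 0.221), also without overlap. Impdh1, an isozyme of the rate-limiting step to GMP, went the other way: it read 11.52, 11.64 and 11.60 against 11.73, 11.73 and 11.64, with every CRE-ERT2 value above every ERT2 value and a change of 0.12 (adjusted p = 0.483, limma) that did not pass.

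De novo pyrimidine genes had the lowest median of the 7 enzyme groups, -0.26, with 2 of 5 called, beside 2.28% of all genes called lower. Umps encodes the enzyme with both last steps to UMP. It read 11.75, 11.70 and 11.73 on the ERT2 arrays and 11.46, 11.36 and 11.37 on the CRE-ERT2 arrays. Each group was tight and they were well apart, with means of 11.73 ± 0.03 and 11.40 ± 0.06 (SD, n = 3 each). The change was -0.33 with a standard error of 0.07, or 20.3% lower (limma adjusted p = 0.0184). Ctps, the CTP synthase gene also called Ctps1, read 11.10, 11.03 and 10.92 against 10.76, 10.66 and 10.63. Its groups did not overlap, and its mean fell from 11.02 ± 0.10 to 10.68 ± 0.07 (SD, n = 3 each), by 0.33 on the log2 scale or 20.6% (limma adjusted p = 0.0279).

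Both pyrimidine calls were lost when ERT2 replicate 1 was left out (limma adjusted p = 0.0628 for Umps and 0.109 for Ctps), and likewise for CRE-ERT2 replicates 2 (0.0889 and 0.0996) and 3 (0.104 and 0.150), and that of Ctps also without ERT2 replicate 2 (0.0566). Dhodh, the mitochondrial enzyme that oxidises dihydroorotate, read 9.36, 9.36 and 9.38 against 9.22, 9.04 and 9.06, a change of -0.26 that did not pass (adjusted p = 0.0717 with limma). It was called with the 6646 dimmest genes left out (0.0371), with array weights (0.0447) and among the 7754 brighter genes (0.0202). In the other 12 of 15 alternative settings Dhodh was not called, with limma adjusted p up to 0.283. Cad, the large enzyme that carries out the first 3 steps, changed by -0.18 (limma adjusted p = 0.235) without overlap. Ctps2, the second CTP synthase gene, read 11.78, 11.65 and 11.62 against 11.67, 11.63 and 11.71, and its groups overlapped (change -0.01, 95% confidence interval from -0.17 to 0.15). Its sign turned after a further quantile normalization (0.04) and after centring the arrays on their medians (0.01).

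**Figure D2:**
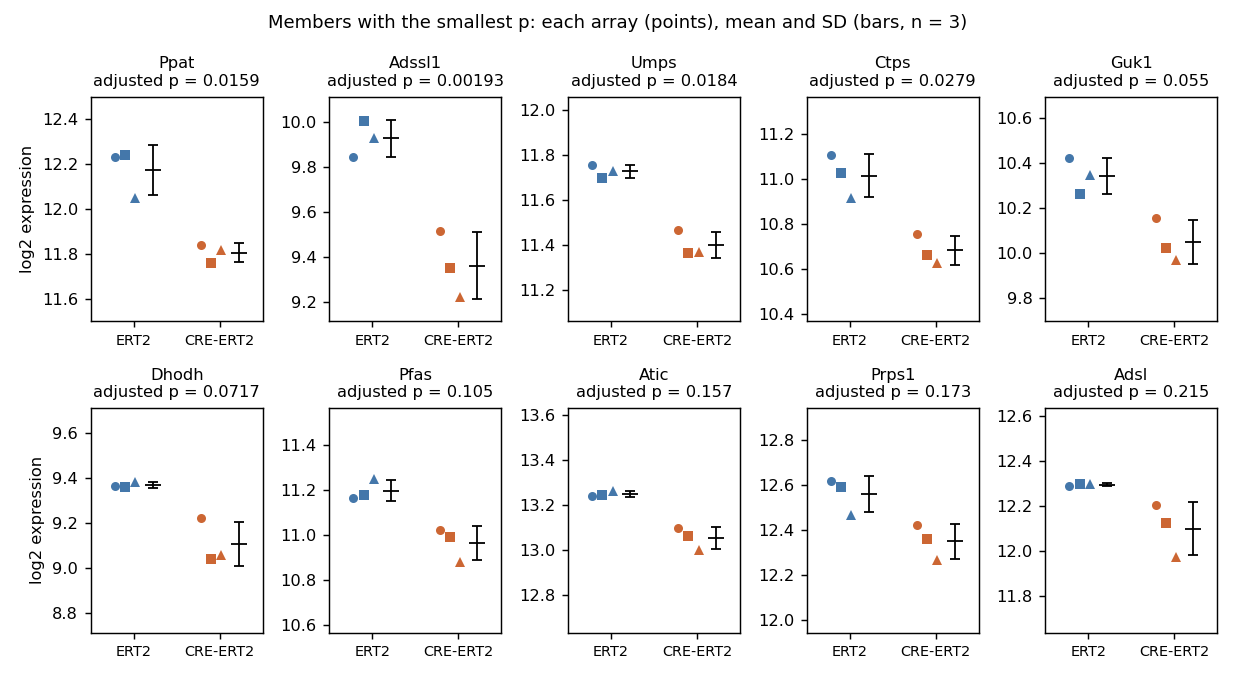
Log2 expression (y axis, a span of 1 in every panel) of the 4 called members and the 6 uncalled ones with the smallest p, by group; points are arrays, with circle, square and triangle for replicates 1, 2 and 3, and the bar is the mean with its SD. In all 10 panels the CRE-ERT2 points lie below the ERT2 points, with gaps of different width. Groups that do not overlap were a condition for choosing the 6 uncalled genes.

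Genes that make deoxynucleotides had a median of -0.10, with 0 of 6 called by limma (2 of the 6, Dut and Rrm2, at an unadjusted p under 0.05). At that unadjusted p, 11.1% of all genes and 20.6% of the 7754 brighter ones were lower. Rrm2, the ribonucleotide reductase subunit whose level follows S phase, read 13.28, 13.28 and 13.24 against 13.13, 13.12 and 13.11. Its arrays were very close within each group, and its change of -0.15 did not pass (limma adjusted p = 0.295, but 0.0490 with a trended, robust variance). Rrm2 was called in that 1 of 15 alternative settings only, with limma adjusted p up to 0.556. The larger subunit gene Rrm1 changed by -0.09 and Dut, which removes dUTP, by -0.16, both without overlap. Dtymk, which phosphorylates dTMP, changed by -0.10, also without overlap. The thymidylate synthase gene Tyms read 12.03, 11.89 and 11.99 against 12.00, 11.93 and 12.02 and Dctd, which supplies its substrate by deamination, changed by 0.01. In both the groups overlapped, and the 95% confidence intervals were from -0.14 to 0.17 for Tyms and from -0.14 to 0.16 for Dctd. Both signs turned when ERT2 replicate 2 or CRE-ERT2 replicate 3 was left out.

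Of the 4 kinases that phosphorylate nucleotides, 0 were called by limma, with 1, Guk1, at an unadjusted p under 0.05, beside 11.1% of all genes lower. Guk1, guanylate kinase, read 10.42, 10.26 and 10.35 against 10.16, 10.02 and 9.97. Its groups did not overlap, and its change of -0.30 ± 0.08 (SE) lay just outside the threshold (adjusted p = 0.0550 with limma). It was called with the 6646 dimmest genes left out (0.0289), with array weights (0.0358), with a trended, robust variance (0.0230), among the 7754 brighter genes (0.0168) and without ERT2 replicate 2 (0.0462). In the other 10 of 15 alternative settings Guk1 was not called, with limma adjusted p up to 0.251. Cmpk1, which phosphorylates UMP and CMP, changed by -0.15 without overlap. The nucleoside diphosphate kinase genes Nme1 (-0.02) and Nme2 (-0.09) overlapped between groups; they are close paralogs, and their probe sets could in part read each other.

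Salvage genes had a median of -0.11 with 0 of 7 called by limma. At an unadjusted p under 0.05, 1, Tk2, was higher, beside 5.29% of all genes. Hprt, which recovers hypoxanthine and guanine, changed by -0.15 (limma adjusted p = 0.327), the deoxycytidine kinase gene Dck by -0.10, the S-phase thymidine kinase gene Tk1 by -0.13 and the uridine-cytidine kinase gene Uck2 by -0.13, all with groups that did not overlap. A second Tk1 probe set changed by -0.06 and a second Uck2 probe set by -0.17. Aprt, which recovers adenine, changed by -0.11 and Uck1 by -0.00327, with overlap in both. Tk2, the mitochondrial thymidine kinase gene, read 9.45, 9.52 and 9.39 against 9.82, 9.52 and 9.63. Its change of 0.20 was the only one above 0.12 among the members and did not pass (adjusted p = 0.268 with limma), and CRE-ERT2 replicate 2 lay within the ERT2 range.

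Isozymes of a step were compared in 6 pairs by taking the difference of their log2 values on each array. With 3 arrays against 3 the two-sided exact permutation test cannot give a p below 0.1, and Benjamini-Hochberg adjustment was over the 6 pairs, so none could pass. The difference of changes was -0.32 for Ctps minus Ctps2, -0.33 for Tk1 minus Tk2, 0.40 for Adss minus Adssl1, -0.13 for Uck2 minus Uck1 and 0.07 for Nme1 minus Nme2. In each of these 5 pairs the 2 groups of 3 differences did not overlap (exact permutation p = 0.1, adjusted p = 0.12). How often other pairs of genes separate in this way was not computed, so this count has no background beside it. For Prps1 minus Prps2 it was -0.04, with overlap (exact permutation p = 0.7, adjusted p = 0.7).

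**Figure D3:**
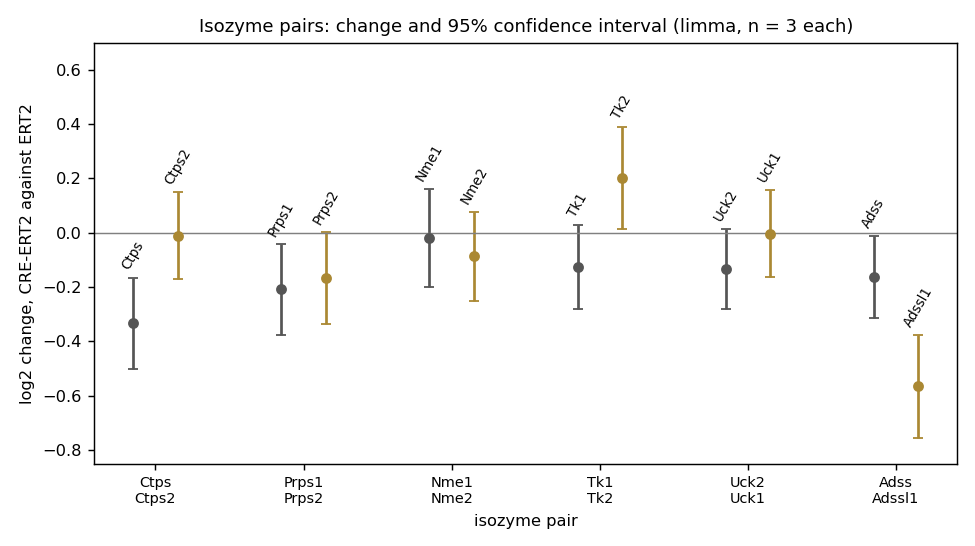
Log2 change between the groups (y axis) with its 95% confidence interval for both genes of 6 isozyme pairs (x axis), from the fit over all genes with 3 arrays in each group. The intervals of Prps1, Ctps, Adss and Adssl1 lie wholly below 0 and that of Tk2 wholly above it. Those of the other genes shown span 0, that of Ctps2 from -0.17 to 0.15.

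Other genes around nucleotide synthesis were described from lists, which were also chosen with earlier results of these data known. Folate enzymes supply the one-carbon units for the purine ring and for thymidylate. Of 17 measured, 6 fell and 0 rose (35.3% lower, beside 2.28% of all genes), with a median of -0.24. The mitochondrial enzyme genes Mthfd2 (-0.54, limma adjusted p = 0.00173), Mthfd2l (-0.52, 0.00467) and Mthfd1l (-0.43, 0.00839) and the glycine decarboxylase gene Gldc (-0.45, 0.00451) fell most. Without CRE-ERT2 replicate 3 Mthfd1l did not pass (0.0565). With all probe sets tested, Mthfd2 was still called (limma adjusted p = 0.0475), and Gldc (0.0660), Mthfd2l (0.0933) and Mthfd1l (0.0998) were not.

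Among 38 other genes of salvage, interconversion and breakdown, 3 fell and 1 rose, while 34 missed the threshold. The share called lower was 7.89%, beside 2.28% of all genes, and 2.30% of all genes were called higher. The median change was -0.02, beside -0.03 over all genes. Nt5e, the surface enzyme CD73 that turns AMP into adenosine, read 10.10, 9.93 and 9.85 against 8.98, 8.95 and 8.82, and fell 2.06-fold (limma adjusted p = 1.25e-05). The adenylate kinase genes Ak4 (-2.20, and -0.44 on a second probe set) and Ak5 (0.80) went opposite ways, and the adenosine kinase gene Adk fell by 0.33 (adjusted p = 0.0355 with limma). Leaving out ERT2 replicate 1 or any of the 3 CRE-ERT2 arrays ended the call of Adk, with adjusted p from 0.0656 without CRE-ERT2 replicate 1 to 0.157 without CRE-ERT2 replicate 2. Adk was also not called after a further quantile normalization (limma adjusted p = 0.0508), with the replicate block (0.0738) or with all probe sets tested (0.177). Testing all probe sets ended the call of Ak5 too (0.0590). Of 9 nucleoside and nucleobase transporters, 1 rose, the lysosomal nucleoside transporter gene Slc29a3 (0.43, limma adjusted p = 0.00443, or 0.0575 with all probe sets tested), and 0 fell. Slc29a2, an equilibrative transporter of the cell surface, changed by -0.30 (adjusted p = 0.0545 with limma), and was called in 5 of 15 alternative settings, with adjusted p from 0.0168 to 0.221 over the 15.

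DNA replication genes encode the machinery that uses these nucleotides. All 30 measured had a negative change, as had 61.1% of all genes and 69.5% of the 7754 brighter ones. The median change of the 30 was -0.17, against -0.07 over the brighter genes. Wholly lower in the CRE-ERT2 arrays were 24, beside 15.5% of all genes and 29.6% of the brighter ones. Of the 30, 1, the origin recognition gene Orc1, was called lower (-0.42, limma adjusted p = 0.0319). That is 3.33%, near the 2.28% of all genes and 3.80% of the brighter ones. Leaving out ERT2 replicate 1 or any of the 3 CRE-ERT2 arrays ended the call of Orc1, with adjusted p from 0.0551 without CRE-ERT2 replicate 1 to 0.157 without CRE-ERT2 replicate 3, and testing all probe sets ended it too (0.228). E2f2, a transcription factor of the S-phase genes, changed by -0.28 (adjusted p = 0.0501 with limma), and was called in 5 of 15 alternative settings, with adjusted p from 0.0138 to 0.226 over the 15. Myc, the transcription factor gene whose known targets include many of the members, read 13.50, 13.43 and 13.28 against 13.15, 13.07 and 12.95 and fell by 0.35 (limma adjusted p = 0.0304). Its call was lost when ERT2 replicate 1 (0.129) or 2 (0.0605) was left out, and likewise for CRE-ERT2 replicates 2 (0.0796) and 3 (0.176), and with all probe sets tested (0.178). The part of proliferation or of Myc in the lower nucleotide synthesis genes was not tested.

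**Figure D4:**
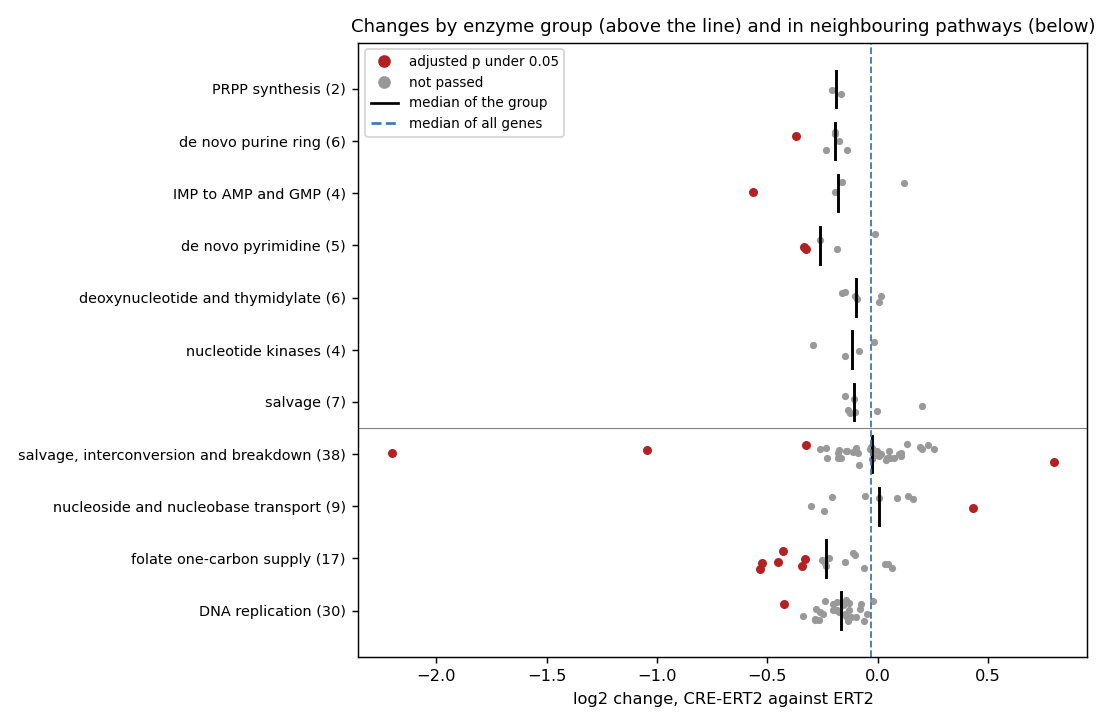
Log2 change between the groups (x axis) for every measured gene of the 7 enzyme groups (above the line) and of 4 neighbouring lists (below), with the number of genes in brackets; red points passed at an adjusted p under 0.05, black bars are medians and the dashed line is the median of all genes. The medians of the 7 enzyme groups lie between -0.26 and -0.10, and those of the folate and replication lists at -0.24 and -0.17. The median of the 7754 genes at least as bright as the dimmest member, which is not drawn, was -0.07.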

How the data were processed

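Biotin-labelled total RNA was read on Affymetrix arrays, per the labels. The authors deposited 1 normalized log2 value for each of 35556 probe sets on each of 6 arrays. The submitters' processing notes name RMA and Partek 6.5 and give no role for either, and the log2 scale was read from the range of the values. No scanner output or scan date was used, which leaves signal over background unknown and batches untested; values of dim genes are compressed.

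The platform annotation gives a single gene for 21789 probe sets, several for 1621 and none for 12146. The brightest probe set was kept per gene (19938 genes). Groups were compared with limma 3.58.1 in R 4.3.3 (lmFit, eBayes, two-sided), adjusted over all genes by Benjamini-Hochberg at 0.05. The fit was tested on 5 simulated data sets of 19938 genes for this comparison: 35.2% of genes changed by 0.3 and 97.6% of those changed by 0.5 were called. Of the genes called, 6.57% on average had no change set, which is above the threshold of 0.05. With 5 runs it is not known whether this excess would persist. Each simulation changed 200 genes and drew independent noise at the fitted variance. It therefore does not show how the fit behaves where many genes shift a little or arrays share structure.

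The members and lists were chosen with earlier results of these data known. Full values are given for called members and for the 6 uncalled ones with the smallest p and no overlap. Array values of the uncalled members Impdh1, Ctps2, Rrm2, Tyms and Tk2 are given outside that rule. In each neighbouring list up to 4 called genes with the largest change are named, and where fewer than 2 were called, those with the smallest p up to 2, beside Ptpn6 and Myc. Promoter sequences are from RefSeq (GRCm38.p6).

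Alternatives were a further quantile normalization, median centring, leaving out the 6646 dimmest genes, the mean of probe sets, all probe sets, a block for the replicate number, a trended robust variance, weights for arrays and each array left out. The fit on the 7754 brighter genes was chosen after seeing the data.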

Additional observations from a re-analysis of the deposited data

How the results depend on the processing

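The members kept a negative median under all 15 alternatives, from -0.16 to -0.12, with its smallest size after a further quantile normalization (-0.12) and then after centring (-0.13); no member was called higher in any of them. The count of members called lower was 10 with a trended, robust variance, 8 among the 7754 brighter genes, 2 (Ppat and Adssl1) with the replicate block and 0 with all probe sets tested, and from 1 to 4 with each array left out; the cause of these moves was not tested. Over all genes the count called in either direction was 1544 (957 lower) with the trended, robust variance, 589 (263 lower) with the replicate block and 298 (110 lower) of 35556 probe sets, and from 453 to 979 (167 to 561 lower) with each array left out. Adssl1 was called in 14 of 15 alternatives, Ppat in 11, Umps in 10 and Ctps in 9.

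With the replicate number as a block Umps (limma adjusted p = 0.0644), Ctps (0.0600) and Adk (0.0738) did not pass. Deviations from the group means of same-numbered arrays correlated at -0.11, -0.37 and -0.07, and no array correlated best with its own number, so the numbers were not taken to pair the samples. Across unlike numbers, ERT2 replicate 2 and CRE-ERT2 replicate 1 correlated at 0.45, and ERT2 replicate 3 and CRE-ERT2 replicate 2 at 0.40. ERT2 replicate 1 and CRE-ERT2 replicate 3 correlated at 0.18, and the remaining pairs from -0.32 to -0.04. A batch or pairing that crosses the groups under other numbers was not tested, and the main fit takes none into account.

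Signs of uncalled members near 0 turned as follows. After quantile normalization the log2 changes were 0.039 for Ctps2, 0.033 for Nme1 and 0.038 for Uck1, after centring 0.0078 for Ctps2 and 0.016 for Uck1, and with array weights 0.0016 for Ctps2. With each array left out they ranged from -0.044 to 0.037 for Ctps2, from -0.026 to 0.046 for Tyms, from -0.011 to 0.031 for Dctd, from -0.095 to 0.022 for Nme1 and from -0.033 to 0.033 for Uck1, and the difference of Prps1 and Prps2 from -0.077 to 0.013. Small changes are limited by 3 arrays a group, and signal over background is unknown.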
